A study of Mus musculus with 4 samples.

Results

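Divergent start sites are places in the genome where transcription leaves in both directions, on the plus strand to one side and on the minus strand to the other. The sites described here are those from which at least 1 of the arms goes on as long transcription. They were selected on the pooled reads of both siCTL libraries, chromosomes 1 to 19. A site needed at least 8 plus-strand reads in the 300 bp to one side of a border and 8 minus-strand reads in the 300 bp to the other. Each count had to reach 3 times the reads of its own strand across the border plus 1. Of 1394 such sites, 1331 had at least 20 pooled siCTL reads at 1 to 5 kb on an outgoing strand, and these are the members. Of these, 491 members passed that minimum on both arms and 840 on 1 arm, which gives 1822 long arms and 840 short arms. Of the long arms, 899 ran on the plus strand and 923 on the minus strand.

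The reads come from GRO-seq, in which nuclei are isolated and engaged RNA polymerases extend their transcripts for a short time in the presence of a labelled nucleotide, so that reads mark transcription in progress. The cells were 3T3-L1, a mouse preadipocyte line, transfected either with control siRNA (siCTL) or with siRNA that targets GPS2 (siGPS2). FCCP, which uncouples mitochondrial respiration from ATP synthesis, was given for 0 or 3 h, so each siRNA has a group without FCCP and a group with it, 4 groups in all. Where 4 values follow each other below, they stand in the order siCTL, FCCP in siCTL, siGPS2 and FCCP in siGPS2. The design asks how nuclear transcription answers to mitochondrial uncoupling and whether GPS2 has a part in it. Each group had 1 library, so intervals below cover counting error only, comparisons are between libraries, and no difference has a replicate check.

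Many mammalian promoters start polymerases in both directions. A polymerase that has begun often halts a short way downstream, and its release from that pause is a main step of control in many genes. The direction that meets a gene body usually goes on for many kilobases, while the other usually ends early as unstable upstream antisense RNA. GPS2 is a subunit of the NCoR and SMRT corepressor complexes and is also known to act at mitochondria.

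The libraries held 4199999 to 4200001 reads each. Reads with a deposited score of 10 or more made up 81.9% and 82.3% in siCTL without and with FCCP, and 54.7% and 55.1% in siGPS2. Between 2223803 and 3352850 such reads lay on chromosomes 1 to 19. By the read names, siCTL without FCCP was sequenced in run 183 and the other 3 libraries in run 189, so FCCP in siCTL and the run cannot be told apart, whereas the siGPS2 libraries shared a run and lane. Reads are crowded into short stretches more often in siGPS2: counting a read that starts within 10 bp of the one before as part of it left 66.7% of the reads at 1 to 5 kb of the long arms in each siCTL library, and 48.6% and 53.3% in siGPS2 without and with FCCP. The GPS2 transcript itself was not analysed here, because the reads are placed on mm8 and no annotation of that build was used. For the same reason the arms are named by position, 1-based, and not by gene.

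The step of read density at the members was present in all 4 libraries. In the pooled siCTL reads the rule itself required it, by asking for an excess over the reads across the border. Scaled reads are counts divided by a factor per library that evens out depth. In the last 50 bp before the border the long arms held 2.25, 1.25, 1.60 and 1.08 scaled reads per kb per arm in the 4 libraries, and at 50 to 100 bp beyond it 24.8, 15.1, 9.89 and 6.62. On the same scale the density at 1 to 5 kb was 11.3, 11.3, 10.8 and 10.3, and in the first 300 bp it was 25.4, 16.1, 11.2 and 8.23. The near density was thus 2.26 and 1.43 times the far density in siCTL without and with FCCP, but 1.04 and 0.797 times in siGPS2. The rule asked for reads in exactly those 300 bp in the siCTL libraries, and the siCTL profiles drop at that edge. The siGPS2 reads were not used to choose the sites, and in them the long arms showed no excess over the far density of the size seen in siCTL.

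**Figure D1:**
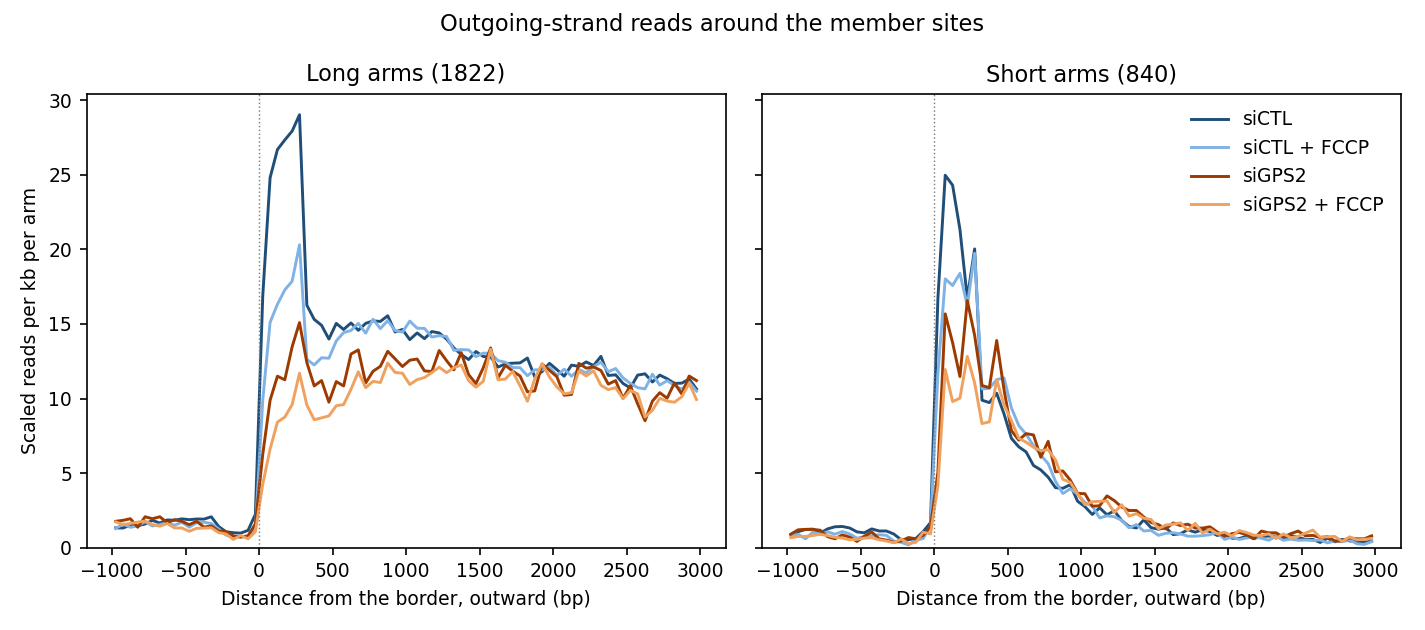
Scaled outgoing-strand reads per kb per arm (vertical axis) by distance from the site's border in bp (horizontal axis, 50 bp bins), for the 1822 long arms at left and the 840 short arms at right, with 1 line per library. In siCTL the long arms stand high up to 300 bp, the window used to choose the sites, then continue on a plateau, while the short arms fall to near 0 within 2 kb.

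Most long arms had few reads of their own strand behind the border. The reads of the same strand at 1 to 5 kb behind the border, which the rule did not use, were 22747 in pooled siCTL against 197445 ahead of it. The reads ahead are those that made an arm long, so in siCTL part of this excess is set by the rule. Outgoing over incoming reads had a median log2 of 5.52 in siCTL and 4.86 in siGPS2. In siCTL, 1278 long arms had 5 or fewer incoming reads. In siCTL, 1537 long arms (84.4%) had outgoing reads of at least 3 times the incoming reads plus 1 and are called steep here, and 1505 (82.6%) passed the same test in siGPS2. At 105 long arms the incoming reads in siCTL were at least as many as the outgoing ones. Whether transcription from further back runs across these borders was not tested.

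On most long arms, outgoing-strand reads were also found further out. Of the 1822 long arms, 1483 had at least 20 pooled siCTL reads at 5 to 10 kb, 1403 at 10 to 20 kb and 1374 at 20 to 50 kb. In siGPS2 the numbers were 1301, 1337 and 1327. The windows widen with distance, so the counts do not describe a constant density. Whether these reads come from the member sites was not tested. At 10 to 20 kb the long arms held 6.26 scaled reads per kb per arm in siCTL without FCCP. The short arms held 1.07 there, and the arms of sites that are not members 2.37. How many of those other arms, or of all windows of the same widths, passed the minimum was not counted. The counts of long arms that passed it thus have no background beside them. Most members stood alone, with 23 within 10 kb and 146 within 50 kb of the next.

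Chromosome 8 held the most members, 136, and the most for its reads, 28.1 per 100000 pooled siCTL reads. Chromosome 19 followed with 23.4, and chromosome 18 was lowest with 30 members and 14.2. The threshold of 20 reads cut a smooth slope, with 6 sites at 18 reads, 6 at 19, 6 at 20 and 9 at 21. Just inside it, the plus arm at chr7:73481451 held 13 and 7 reads in siCTL without and with FCCP, and 22 in each siGPS2 library. Just outside, the minus arm at chr1:162963201 held 11, 8, 11 and 7.

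Reads close to the start fell with FCCP under both siRNAs, by more than reads further out. In the first 300 bp of the long arms the sum went from 5088 reads in siGPS2 to 3781 in siGPS2 with FCCP, a scaled log2 change of -0.45 (95% interval -0.51 to -0.39) or 1.37-fold lower. In siCTL it went from 16430 to 10785, a log2 change of -0.66 (-0.69 to -0.62) or 1.58-fold lower. At 1 to 5 kb the sums were 65285 and 63293 in siGPS2, a log2 change of -0.07 (-0.08 to -0.05), and 96981 and 100464 in siCTL, a change of 0.00. The siGPS2 reads were not used to choose the sites, although their change differs with the reads that are (given further on). The siCTL values are a description, because the same reads chose the members.

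The ratio of near to far reads needs no scale between libraries. It went from 7.79% to 5.97% in siGPS2, a log2 change of -0.38 (-0.45 to -0.32), and from 16.9% to 10.7% in siCTL, a change of -0.66. Single arms spread widely around this, with a median of -0.36 and quartiles of -1.38 and 0.45 in siGPS2. Over all strand-specific 300 bp tiles of the genome with at least 8 pooled siCTL reads and 20 ahead, 187100 in number, the summed ratio changed by -0.05 under both siRNAs. In siGPS2 the ratio of the arms thus fell by more than that of these tiles. In siCTL the near reads of the arms also chose the members, so there the comparison is a description. In siGPS2 the 198212 tiles with at least 8 pooled siCTL reads, whatever lies ahead, together changed by -0.10 in reads.

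The fall was spread over many arms, and without the 10 arms with most siGPS2 near reads the summed change was -0.45. In siGPS2, 1097 long arms were lower with FCCP in the first 300 bp after scaling, 435 were higher and 290 had no read in either library. Arms with equal raw counts above 0 count as lower here, because the factor of the FCCP library is larger. Over all long arms the median and the upper quartile of the log2 change were both -0.02, the value of equal counts. Of the 71 arms with at least 20 siGPS2 reads there, 57 were lower, with a median log2 of -0.43. Arms with no near read made up 27.4% in siGPS2 and 39.0% in siGPS2 with FCCP. In siCTL, 1479 arms were lower and 343 higher, with equal raw counts again counted as lower.

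All 19 chromosomes showed it, but they come from the same libraries and are not replicates. In siCTL the summed near reads are also those that chose the members. Summed within a chromosome, the near change was between -0.69 and -0.25 in siGPS2 and between -0.76 and -0.42 in siCTL. On each of the 19 it lay below the change at 1 to 5 kb under both siRNAs, as the plot by chromosome shows. The far change had either sign, from -0.30 to 0.13 in siGPS2 and from -0.23 to 0.24 in siCTL.

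**Figure D2:**
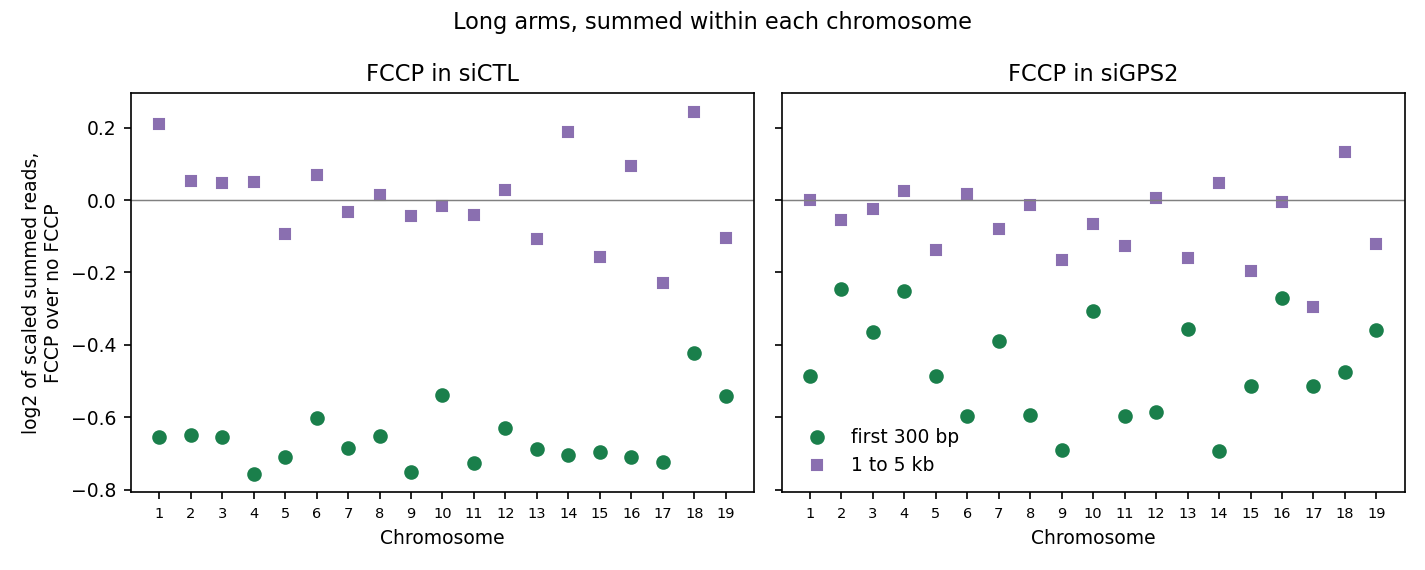
log2 change with FCCP of scaled reads summed over the long arms of each chromosome (vertical axis) for chromosomes 1 to 19 (horizontal axis), in siCTL at left and siGPS2 at right, with circles for the first 300 bp and squares for 1 to 5 kb. The circles lie below 0 and below the square of the same chromosome on all 19 chromosomes in both panels.

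The change was smaller further out. In siGPS2 the summed log2 change over the 50 bp windows from the border to 300 bp was -0.55, -0.58, -0.45, -0.36, -0.49 and -0.37, with no steady order, then -0.27 at 300 to 600 bp and -0.12 at 600 to 1000 bp. In siCTL it was -0.77, -0.71, -0.71, -0.66, -0.64, -0.52, -0.20 and -0.02 over the same windows. The stretch from 300 to 600 bp is not part of the window that chose the sites, and its reads fell from 4993 to 4198 in siGPS2 and from 9703 to 8760 in siCTL. Beyond 5 kb the change was 0.00 in siCTL at each window and between -0.05 and -0.02 in siGPS2.

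**Figure D3:**
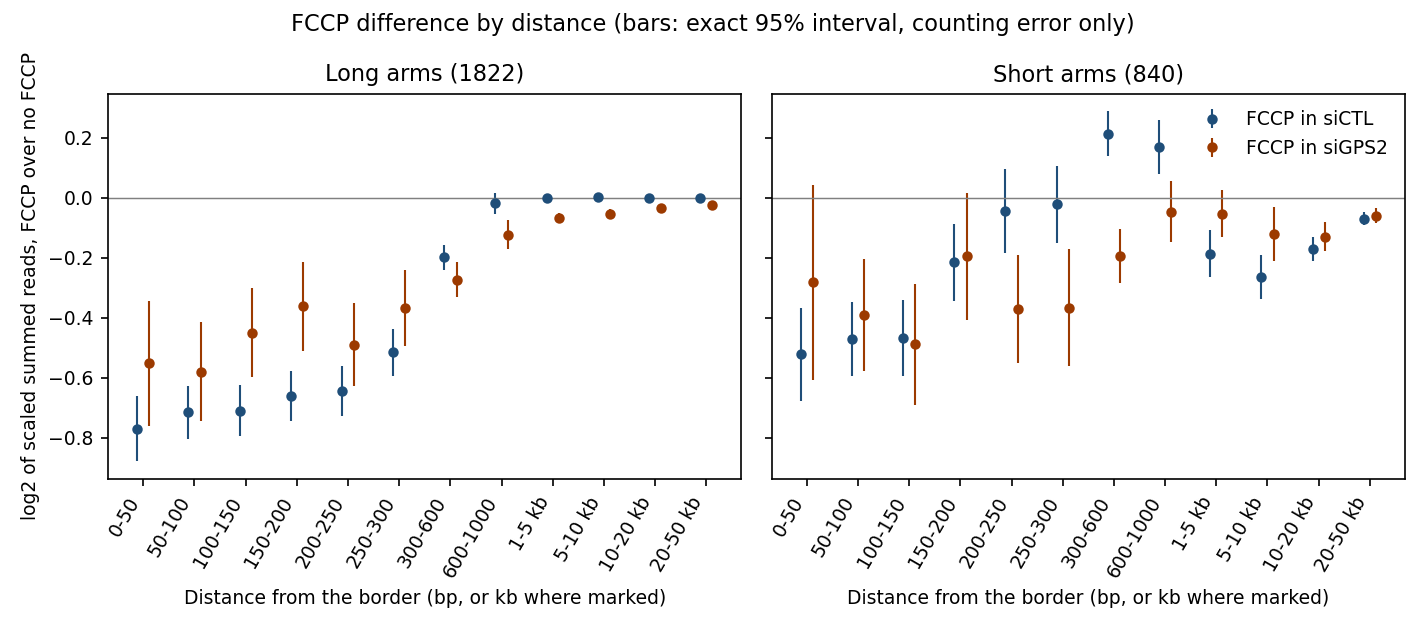
log2 of scaled summed reads with FCCP over without (vertical axis) by window of distance from the border (horizontal axis, bp, or kb where marked), for long arms at left and short arms at right, with exact 95% intervals from counting error. On the long arms the change rises from -0.77 in siCTL and -0.55 in siGPS2 at the border to about 0 beyond 1 kb.

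The kind of arm changed the size little in siGPS2. The near change was -0.48 on steep arms and -0.34 on the others. It was -0.43 on arms of members with both arms long and -0.48 on the long arm of members with 1. Split by pooled siCTL reads at 1 to 5 kb into equal groups from low to high, the arms gave -0.45, -0.48 and -0.44. None of these differences was tested.

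The short arms, where transcription ends early, differed between the siRNAs. In the first 300 bp they went from 2669 to 2112 reads in siGPS2, a log2 change of -0.36, and from 6156 to 5218 in siCTL, a change of -0.29. At 300 to 600 bp they went from 2633 to 3163 in siCTL, a change of 0.21, but from 2126 to 1888 in siGPS2, a change of -0.19. On the short arms in siCTL, reads were thus lower with FCCP near the border and higher just beyond it, and in siGPS2 they were lower in both stretches. The 126 arms of the 63 sites that are not members changed by -0.42 in siCTL and by -0.16 (-0.39 to 0.08) in siGPS2 in the first 300 bp. At 300 to 600 bp they changed by 0.26 (0.07 to 0.46) in siCTL and by -0.31 (-0.55 to -0.08) in siGPS2. The signs were those of the short arms, so this pattern is not particular to the members.

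The size of the near fall depends on which reads find the sites. Found on siCTL without FCCP alone, 332 sites with a long arm gave -0.86 in siCTL and -0.57 in siGPS2. Found on siCTL with FCCP alone, 118 such sites gave -0.15 and -0.43. Found on the pooled siGPS2 reads, 455 such sites gave -0.05 in siCTL and -0.21 in siGPS2. Of all 559 sites found in siGPS2 reads only 58 lay within 300 bp of a member, which is 10.4% of those sites and 4.36% of the members. At sites chosen on siGPS2 reads the siCTL change was thus near 0. Where reads that start within 10 bp of the one before are counted once, the near change was -0.46 in siCTL and -0.43 in siGPS2. After that step 52.7% and 61.9% of near reads remained in siCTL without and with FCCP, and 53.5% and 56.0% in siGPS2. The part of such crowding, and of the sequencing run in siCTL, was not tested further.

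For single arms the depth allowed few calls near the start. A call needs a scaled difference of at least 1.5-fold and an exact interval at an error of 0.001 that excludes no change. In siCTL, 9 long arms were called lower with FCCP in the first 300 bp and 0 higher, where 0.166% and 0.147% of all 300 bp tiles with the same read minimum were. In siGPS2, 0 were called in either direction, against 0.0878% of tiles lower and 0.0252% higher. The upper quartile of reads in that window was 3 in siGPS2 and 2 in siGPS2 with FCCP.

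At 1 to 5 kb FCCP changed few long arms by more than counting error. In siGPS2, 16 arms were called higher (0.878%) and 22 lower (1.21%), where 0.441% and 0.384% of all 96900 strand-specific 4 kb tiles with at least 20 pooled siCTL reads were. In siCTL, 51 arms were called higher (2.80%) and 46 lower (2.52%), against 2.04% and 1.95% of tiles. A long arm held a median of 33 reads in siCTL and 21 in siGPS2, against 22 and 12 in a tile, and more reads allow more calls. The members' shares in siCTL are near the background. With an interval from the spread between 200 bp bins of each arm, which widens where reads are crowded, the calls in siCTL were 33 higher and 14 lower and those in siGPS2 were 0. The share of tiles called with that interval was not counted, so these calls have no background beside them.

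Where arms were called under both siRNAs they went the same way. Of the 51 arms higher in siCTL, 46 were above 0 in siGPS2 and 10 were called higher there. Of the 46 lower in siCTL, 41 were below 0 in siGPS2 and 4 were called lower, and 0 arms were called in opposite directions. With so few calls in siGPS2, few opposite calls could occur, and the share of tiles called under both siRNAs was not counted. Over all 1822 long arms the sign was the same at 1123 (61.6%). The FCCP changes under both siRNAs had a correlation of 0.32 over the 1822 arms, of 0.53 over the 544 arms with at least 100 pooled siCTL reads and of 0.71 over the 198 with at least 200. These are descriptions across arms that share libraries and depth. Both arms of the 491 members with 2 long arms went together less closely, with a correlation of 0.21 in siCTL and 0.11 in siGPS2.

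**Figure D4:**
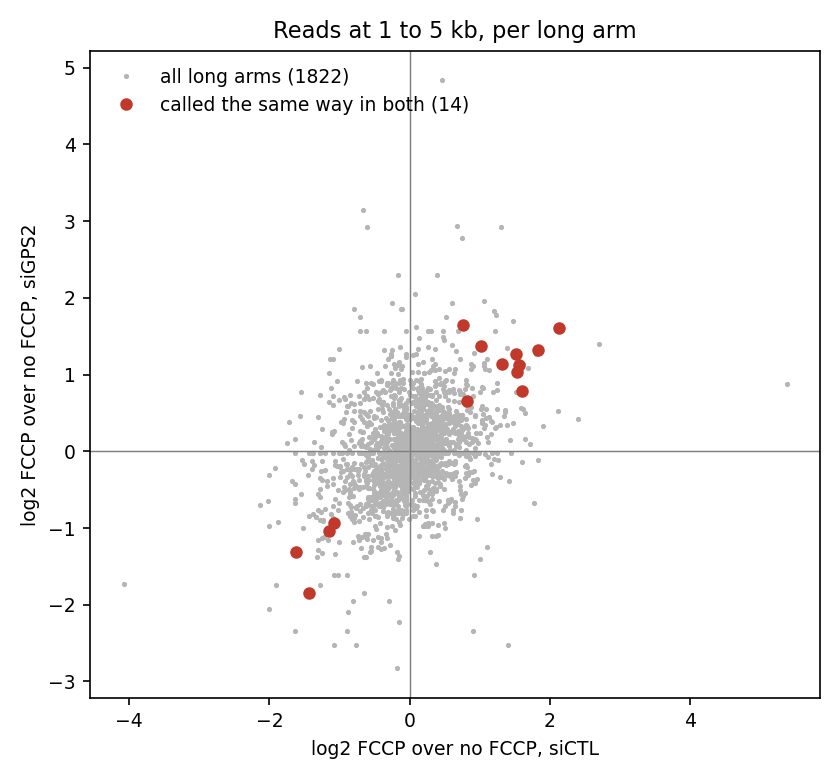
log2 change with FCCP at 1 to 5 kb in siCTL (horizontal axis) and siGPS2 (vertical axis), with 1 grey point per long arm and the 14 arms called the same way under both siRNAs in red. The 10 red points at upper right were higher with FCCP and the 4 at lower left were lower.

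Counts of single arms are raw reads at 1 to 5 kb in the order given above. Among the arms higher with FCCP, the minus arm at chr8:63842051-63846050 held 15, 70, 11 and 35 reads, log2 changes of 2.14 (1.35 to 3.08) and 1.60 (0.64 to 2.77). On chromosome 14, the plus arm at chr14:54495401-54499400 held 32, 119, 23 and 59, and the minus arm at chr6:83278351-83282350 held 43, 129, 44 and 108. At all 3 arms both FCCP libraries stood above both untreated ones. At chr6:83278351-83282350 the change was 1.52 in siCTL and 1.26 in siGPS2, while the reads in its first 300 bp were 8, 9, 5 and 2.

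Further arms higher with FCCP showed the same order, and except on chromosome 18 they had more siCTL reads. The plus arm at chr8:77990451-77994450 held 104, 318, 100 and 221 reads, a log2 change of 1.56 (1.24 to 1.90) in siCTL and 1.12 (0.77 to 1.48) in siGPS2. On chromosome 11, the plus arm at chr11:83290101-83294100 held 67, 173, 50 and 112. Both untreated libraries at each of these arms lay below both FCCP libraries, and the siRNAs differed less than FCCP did. At chr3:121716401-121720400, also on the plus strand, the counts were 72, 217, 34 and 71. There siGPS2 with FCCP was near siCTL without it in raw reads but above it after scaling. On the minus arm at chr18:34626701-34630700 the counts were 36, 76, 18 and 48. The first 300 bp of these 4 arms held at most 12 reads in any library.

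Arms lower with FCCP included one of the most read. The minus arm at chr17:35441501-35445500 held 552, 257, 321 and 158 reads, log2 changes of -1.15 (-1.37 to -0.94) and -1.04 (-1.33 to -0.77). With crowded reads counted once its change in siCTL was 0.34. At 552 reads over this stretch, that step also joins reads that are evenly spread. Whether the fall in that library rests on crowded reads was therefore not tested. Another minus arm, chr9:64995051-64999050 held 105, 35, 150 and 61, and that at chr15:98776651-98780650 held 221, 108, 233 and 124. On chromosome 4, the minus arm at chr4:117930251-117934250 held 61, 23, 33 and 9. All 4 lost more than counting error under both siRNAs at 1 to 5 kb, but at 5 to 10 kb all except the arm on chromosome 15 were higher with FCCP in siGPS2.

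**Figure D5:**
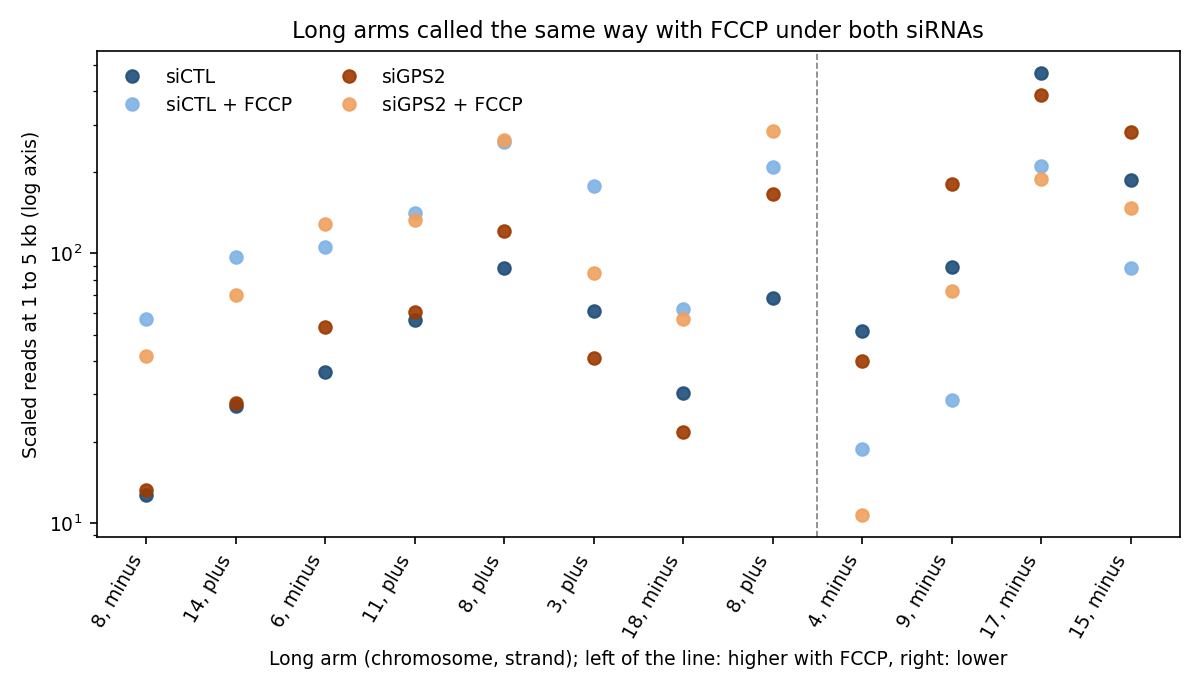
Scaled reads at 1 to 5 kb (vertical log axis) in the 4 libraries for the named arms called the same way with FCCP under both siRNAs (horizontal axis, chromosome and strand), 8 higher left of the dashed line and 4 lower right of it. On each arm both FCCP points lie on one side of the untreated point of the same siRNA. The choice of the arms required this.

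The response to FCCP differed between the siRNAs beyond counting error at 9 long arms, all with the lower signed log2 change in siGPS2. Among tiles, 0.185% had a lower signed change in siGPS2 and 0.0599% a higher one. Most reads lay on the plus arm at chr1:151863101-151867100, with 313, 620, 300 and 341 reads and log2 changes of 0.94 and 0.16. On chromosome 10, the plus arm at chr10:114789951-114793950 held 95, 231, 129 and 163. At the first, siCTL with FCCP was the highest library also after scaling, and at the second siGPS2 with FCCP was slightly above it. On the plus arm at chr8:113921451-113925450, with 81, 256, 137 and 240, siCTL without FCCP was the lowest, and FCCP was called higher under both siRNAs. siCTL without FCCP, the library from the other run, enters each of these differences.

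Between the siRNAs, arms high in siCTL were favoured by the choice, so the following are descriptions. Without FCCP, 96 long arms were called higher in siGPS2 (5.27%) and 165 lower (9.06%), against 4.52% and 5.7% of tiles. Scaled to total reads, the split was 129 higher and 130 lower. With FCCP, 76 were higher (4.17%) and 129 lower (7.08%), against 3.78% and 3.88% of tiles. In both states 42 arms were higher and 61 lower. With the bin interval these were 0 and 11. The share of tiles called in both states was not counted, so these numbers have no background beside them. The summed log2 change of siGPS2 against siCTL without FCCP was -1.18 in the first 300 bp and -0.06 at 1 to 5 kb, where the siRNA and the sequencing run cannot be told apart. With FCCP, within 1 run, it was -0.97 and -0.13.

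Among arms higher in siGPS2 the counts were small. The minus arm at chr4:44028651-44032650 held 36, 34, 89 and 99 reads, and its first 300 bp 5, 9, 19 and 16. On chromosome 17, the plus arm at chr17:56676301-56680300 held 26, 41, 72 and 87 reads, but 8, 5, 1 and 2 in the first 300 bp. The plus arm at chr7:73433151-73437150 held 10, 10, 44 and 29. At these 3 arms both siGPS2 libraries lay above both siCTL libraries at 1 to 5 kb.

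Among the named arms lower in siGPS2 in both states, the plus arm at chr11:72258451-72262450 held 155, 91, 33 and 18 reads. Its log2 change was -1.70 (-2.31 to -1.17) without FCCP and -1.77 (-2.61 to -1.06) with it, and it passed the bin interval in both states. On chromosome 5, the minus arm at chr5:31231901-31235900 held 73, 48, 11 and 9. Nearly empty in siGPS2, the minus arm at chr8:98216401-98220400 held 36, 30, 1 and 3, a log2 change of -4.09 (-9.999 to -2.09) without FCCP. At each of these 3 arms both siCTL libraries lay above both siGPS2 libraries. At 5 to 10 kb the arm on chromosome 11 was higher in siGPS2, by 0.22 without FCCP and 0.51 with it.

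The 3 arms with most pooled siCTL reads changed by less than 1.5-fold with FCCP, unlike the arms on chromosomes 1 and 17 given above. The minus arm at chr19:5797801-5801800 held 1591, 1500, 1655 and 1538 reads, and 67, 62, 146 and 109 in the first 300 bp. Second was the minus arm at chr10:117108751-117112750 with 1306, 1228, 1144 and 986, and 68, 55, 17 and 12 near the start. At chr5:143167001-143171000, also on the minus strand, the counts were 786, 635, 717 and 518. At 1 to 5 kb both FCCP counts were lower at each of these 3 arms, by a log2 of -0.13 and -0.13, -0.14 and -0.24, and -0.36 and -0.49, none past 1.5-fold. The near reads of the first and the second differed in the order of the siRNAs.

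Chromosome 10 held the members with the most reads on both arms. The plus arm at chr10:117150451-117154450 held 253, 266, 186 and 175 reads, and its partner on the minus strand at chr10:117144451-117148450 held 488, 555, 214 and 253. That minus arm was called lower in siGPS2 without and with FCCP, by a log2 of -0.67 and -0.59. Near the start the plus arm held 65, 59, 33 and 14. The site with the minus arm at chr10:117108751-117112750 had on its plus arm 147, 116, 53 and 61 reads, and 74, 66, 77 and 69 in the first 300 bp. After scaling, the near reads of that plus arm were higher in both siGPS2 libraries than in both siCTL libraries, while its minus arm had fewer in siGPS2. At chr6:83021301-83025300 and its partner at chr6:83015301-83019300 both arms were lower with FCCP, with 116, 100, 83 and 53 reads and 128, 90, 78 and 51.

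The near to far ratio of single arms in siGPS2 moved both ways. Among the 71 arms with enough near reads, the minus arm at chr6:6523651-6527650 had 27 near reads in siGPS2 and 12 with FCCP, while its far reads went from 42 to 60, a log2 change of the ratio of -1.65. On chromosome 19, the minus arm at chr19:20452701-20456700 went from 19 to 7 near and from 247 to 222 far, a change of -1.22. The near reads of both fell while far reads changed by less. In the other direction, the plus arm at chr11:48644651-48648650 went from 11 to 16 near and from 78 to 59 far, a change of 0.92. In siCTL the ratio of these 3 arms changed by -0.14, -0.02 and -0.15.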

How the data were processed

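The deposited files list aligned GRO-seq reads, 1 library per group and 4 in all. The submitters' processing notes name Bowtie, HOMER and mm8, with further steps not given in the sources used here. Column 5, a deposited score of 0 to 42, was read as mapping quality, and reads of 10 or more were counted by their 5′ end. Within a library no read shares its start, end and strand with another. In 3 libraries 1 malformed line was removed. Borders were searched every 50 bp, keeping the best site within 1 kb. Libraries were scaled by medians of ratios over 27619 strand-specific 10 kb windows with at least 20 reads in each, to factors of 1.18, 1.22, 0.828 and 0.841. Changes are log2 of scaled counts, with 0.5 added for single arms. Intervals are exact (Clopper-Pearson) and cover counting error only. The members and lists were chosen with earlier results of these data known. Named are the arms with most reads, those called alike in both FCCP or both siRNA comparisons with the largest smaller change, those with extreme ratios in siGPS2 and the largest members with 2 long arms. The text gives some of each. Python 3.11.15, numpy 2.4.6, pandas 2.3.3, scipy 1.17.1 and matplotlib 3.10.9 were used, and the steps were tested on simulated data. Alternatives are in the closing section. Sequences and genes are not used here.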

Additional observations from a re-analysis of the deposited data

Results flagged for a closer look

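At 9 long arms the FCCP response at 1 to 5 kb differed between the siRNAs by at least 1.5-fold, with an interval at an error of 0.001 that excluded no difference. That interval covers counting error only, with 1 library per group. The difference, siGPS2 minus siCTL on the log2 scale, was -0.65 at chr1:40385051-40389050 (plus strand), -0.773 at chr1:151863101-151867100 (plus) and -1.57 at chr7:90322401-90326400 (minus). On chromosome 8 it was -1.42 at chr8:18841401-18845400 (minus), -1.28 at chr8:97276451-97280450 (plus) and -0.82 at chr8:113921451-113925450 (plus). It was -1.12 at chr9:75190951-75194950 (minus), -0.914 at chr10:114789951-114793950 (plus) and -1.14 at chr18:64637051-64641050 (minus). All 9 arms had more reads in siCTL with FCCP than without. At chr8:18841401-18845400 the counts were 57, 83, 53 and 28, the only one of the 9 whose siGPS2 count fell by more than 1.5-fold with FCCP.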

How the results depend on the processing

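No paired analysis was possible because each group has 1 library, and for the same reason no library could be left out. The near fall with FCCP kept its sign in siGPS2 under each of the 16 settings tried, from -0.57 to -0.21, and the median near to far ratio there from -0.53 to -0.17. In siCTL the sum stayed between -0.86 and -0.05, and the median ratio between -1.02 and 0. The cause of each shift was not tested.

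The near change in siCTL was -0.62 with all reads, -0.61 scaled to total reads, -0.46 with crowded reads counted once, -0.73 in 150 bp, -0.53 in 500 bp, -0.70 with a minimum of 40 far reads and -0.70 with an excess of 5 times at the border. The siCTL ratio was -0.39 with crowded reads counted once, -0.65 with the arm at 5 to 10 kb, -0.61 in 150 bp, -0.58 in 500 bp, and -0.79 with either stricter minimum. In siGPS2 a near window of 150 bp gave -0.52 and a ratio of -0.21.

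Sites with a long arm numbered 332 when found on siCTL without FCCP, 118 on siCTL with FCCP and 455 on siGPS2. For these 3 sets in that order, the near change was -0.86, -0.15 and -0.053 in siCTL, and in siGPS2 -0.57 and -0.21 for the first and the last. The ratio was -1.02, -0.22 and 0 in siCTL, and -0.53 and -0.17 in siGPS2 for the first and the last. Arms called at 1 to 5 kb with FCCP numbered 32, 18 and 47 in siCTL, with 9, 11 and 25 in siGPS2. Between the siRNAs they were 91, 34 and 88 without FCCP and 65, 27 and 78 with it.

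With crowded reads counted once, calls at 1 to 5 kb were 41 and 0 with FCCP in siCTL and siGPS2, and 24 and 14 between the siRNAs without and with FCCP. The bin interval left 47, 0, 49 and 42 in the same order. An arm of 1 to 3 kb gave 61 and 18 with FCCP, a 2-fold minimum 21 in siGPS2, and reads of quality 42 gave 116 between the siRNAs with FCCP. The main counts were 97, 38, 261 and 205. The share of tiles called was not counted under these alternatives.

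Of 48 changes of named arms, 10 stayed called with crowded reads counted once, 13 with the bin interval, 33 with reads of quality 42 and 14 at 5 to 10 kb. With crowded reads counted once chr17:35441501-35445500 became 0.34 with FCCP in siCTL. At 5 to 10 kb, 12 changed sign. With FCCP in siGPS2 these were chr4:117930251-117934250 at 1.36, chr9:64995051-64999050 at 0.37 and chr17:35441501-35445500 at 0.30. In siGPS2 against siCTL they were chr4:44028651-44032650 at -0.034, chr17:74428251-74432250 at -1.81, chr1:51424151-51428150 at -2.29, chr1:40270051-40274050 at 0.39, chr11:72258451-72262450 at 0.22 and chr1:54967051-54971050 at 0.70. With FCCP they were chr8:98216401-98220400 at 0.25, chr11:72258451-72262450 at 0.51 and chr1:54967051-54971050 at 0.15.

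Limits to steep arms, to members 10 kb or more apart and to arms outside the 10 with most siGPS2 near reads were chosen after seeing the data and moved no count by over 1.5 times. The median siGPS2 arm had 1 near read, which limits what single arms can show.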

Other observations

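The steepness of the drop at 300 bp differs between libraries. From the window of 250 to 300 bp to that of 300 to 350 bp the long arms went from 29.0 to 16.3 scaled reads per kb per arm in siCTL and from 20.3 to 12.6 in siCTL with FCCP. In siGPS2 they went from 15.1 to 12.4 and in siGPS2 with FCCP from 11.7 to 9.57. The first pair of libraries chose the sites on exactly that window and the second pair did not.

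At 9 long arms the first 300 bp were called lower with FCCP in siCTL. The minus arm at chr6:86486801-86490800 had the most reads there, 38 without FCCP and 10 with it in siCTL, and 6 and 5 in siGPS2. The plus arm at chr13:74071001-74075000 had 20 and 3 in siCTL, and 1 in each siGPS2 library. Both were picked after their values were seen.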
